A study of Homo sapiens with 6 samples.

Results

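Cancer testis antigen genes were followed in H69 cells, a human cell line, after treatment with trichostatin A (TSA). The genes were chosen by symbol alone: the MAGEA, MAGEB, MAGEC, PAGE, GAGE, SSX, XAGE, CTAG, SPANX and CT-numbered families, PRAME, and the named genes DDX53, TEX14, TEX15, SYCP1, SYCP3, SPA17, CTCFL, BRDT, CTNNA2, TDRD1, PIWIL2 and LIPI. The rule matched 54 of the 31814 genes in the deposited table, 41 of them on the X chromosome and 13 on autosomes. No CTAG gene, DDX53 or LIPI was among the rows analysed. Polyadenylated RNA came from cells kept for 24 h with TSA at 1 µM (3 libraries) or with its solvent DMSO (vehicle, 3 libraries), with no other difference in the labels. TSA inhibits histone deacetylases, the enzymes that take acetyl groups off histones. TSA is the agent named in the design text and the protocol, but the tag of these 3 samples says HSA. Nothing in the labels says whether each library had its own culture. The p-values below therefore reflect how far these libraries varied, which may be technical variation alone.

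Cancer testis antigen genes are transcribed in the germ cells of the testis, are silent in most other adult tissues and are found transcribed again in many tumours, where their products can be seen by T cells. In somatic cells many of them are held silent by DNA methylation of their promoters and by repressive chromatin, and inhibitors of DNA methylation and of histone deacetylases are known to raise some of them in cultured cells. Type I MAGE proteins, those of the MAGEA, MAGEB and MAGEC families, bind and direct RING ubiquitin ligases.

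More than one human line carries the name H69, and the labels give no tissue. All 8 neuroendocrine markers examined passed the filter on low values. CHGB, a chromogranin of secretory granules, averaged 86.7 TPM in TSA and 157 TPM in vehicle, and SYP, synaptophysin, averaged 128 TPM in TSA and 140 TPM in vehicle. Of the 6 bile duct markers, KRT19, KRT7, SOX9 and AQP1 passed the filter, and CFTR and SPP1 did not. CFTR stayed at or below 0.129 TPM in every library. KRT19 averaged 101 TPM in TSA and 208 TPM in vehicle, and SOX9 averaged 23.0 TPM in TSA and 15.9 TPM in vehicle. Whole reads recovered from the TPM values (reads scaled by gene length and library total), which are lower bounds, came to 23139865 to 24942731 per TSA library and 22688306 to 26330950 per vehicle library. In TSA library 1, 26668 genes were above 0, the most of the 6 libraries, and 5.05% of its reads were mitochondrial, against 1.25% to 3.20% in the other libraries.

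The libraries hold RNA, not promoter DNA, so the promoters below are shown only for reading beside the values. RefSeq promoter windows (build GRCh38.p14) were found for 41 of the 54 genes. The 120 bases before the annotated start, 5′ to 3′ on the strand of the gene, are given for the 6 genes with the greatest rises among those with a sequence and for MAGEA12 and MAGEA3, which were chosen after their values were seen because of the contrast between them. Capitals mark GGATGTGA, the run of 8 letters found in more of the 41 promoters than any other.
MAGEB2: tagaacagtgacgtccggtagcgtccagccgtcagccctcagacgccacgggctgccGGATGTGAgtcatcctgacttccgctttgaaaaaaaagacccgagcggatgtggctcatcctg
PAGE1: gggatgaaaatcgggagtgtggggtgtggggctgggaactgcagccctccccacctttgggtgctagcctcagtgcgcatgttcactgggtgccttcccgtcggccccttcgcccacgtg
MAGEA4: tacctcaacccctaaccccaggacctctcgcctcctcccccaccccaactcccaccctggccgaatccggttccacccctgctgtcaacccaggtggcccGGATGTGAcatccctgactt
MAGEA11: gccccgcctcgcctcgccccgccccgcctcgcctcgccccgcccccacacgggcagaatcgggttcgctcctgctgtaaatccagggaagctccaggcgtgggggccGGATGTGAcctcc
MAGEB1: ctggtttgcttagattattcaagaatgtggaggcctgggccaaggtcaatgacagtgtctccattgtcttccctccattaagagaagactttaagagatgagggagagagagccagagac
MAGEC2: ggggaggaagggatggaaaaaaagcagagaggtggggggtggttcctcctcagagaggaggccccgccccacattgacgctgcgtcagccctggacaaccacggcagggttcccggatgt
MAGEA12: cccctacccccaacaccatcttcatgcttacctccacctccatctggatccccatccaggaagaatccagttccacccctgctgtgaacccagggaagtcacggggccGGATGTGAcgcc
MAGEA3: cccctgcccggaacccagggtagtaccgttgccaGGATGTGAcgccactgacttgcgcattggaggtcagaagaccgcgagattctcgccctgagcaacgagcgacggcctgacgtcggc
The windows of MAGEB2 (chrX:30215443-30215562), MAGEA4 (chrX:151912354-151912473), MAGEA11 (chrX:149711940-149712059), MAGEB1 (chrX:30243611-30243730), MAGEA12 (chrX:152733637-152733756) and MAGEA3 (chrX:152698674-152698793) lie on the plus strand. Those of PAGE1 (chrX:49695985-49696104) and MAGEC2 (chrX:142205291-142205410) lie on the minus strand.

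On either strand of the 250 bases before the start, GGATGTGA occurred in 12 of the 41 promoters (29.3%), against 339 of the 35114 promoters of the RefSeq table (0.965%). The run was picked from these promoters, and near-identical gene copies share their letters, so the share is a description. All 10 MAGEA promoters with a sequence held it, and among the other 31 promoters it was found in those of MAGEB2 and MAGEB16. It did not separate genes by their response: 4 of the 11 promoters of genes that rose in the limma test below held it, and so did both promoters of genes that did not pass, MAGEA3 and MAGEA6, whose 250 bases are identical. The motifs searched on both strands were about as common as elsewhere. CCGGAA, an ETS core with a CpG, was in 14.6% of the 41 promoters and 14.5% of all promoters, and GGAAG, a shorter ETS core that overlaps it in part, in 68.3% and 65.1%. The E-box CANNTG was in 68.3% and 61.8%, the Sp1 motif GGGCGG in 36.6% and 42.6%, and the E2F6 motif GCGGGA in 19.5% and 23.5%. CpG dinucleotides, the sites of DNA methylation, had a median of 8 per 250 bases in the 41 promoters and 11 over all promoters of the table. The median was 8 in the 33 X-linked promoters and 13.5 in the 8 autosomal ones. Among the 33 X-linked genes with a promoter the median ratio of observed to expected CpG was 0.342, against 0.554 over all X-linked promoters. For the 8 autosomal genes it was 0.611, against 0.558 over all promoters.

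Most cancer testis antigen genes were barely transcribed in vehicle, and more of them were seen after TSA. Reads were found for 47, 47 and 44 of the 54 genes in TSA libraries 1, 2 and 3, and for 32, 32 and 31 in vehicle libraries 1, 2 and 3. In the same order 25, 20 and 21 genes were at 1 TPM or more in TSA, against 16, 15 and 12 in vehicle. Over all genes, 26668, 24792 and 24809 were above 0 in TSA, against 24345, 22756 and 23608 in vehicle. At 1 TPM or more all genes numbered 17948, 16359 and 16600 in TSA, against 17155, 16108 and 16558 in vehicle. Of the 54 genes, 12 were at 1 TPM or more in all vehicle libraries, 4 in some of them and 38 in none. With 16 genes at 0 in all vehicle libraries and 2 others at 0 in all TSA libraries, none was at 0 in all 6. Since these are bulk libraries, more cells transcribing a gene and more RNA per cell cannot be told apart.

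Differences were tested with limma on log2(TPM + 1) over the 17596 genes that reached 1 TPM in at least 3 libraries, with Benjamini-Hochberg adjustment over all of them. Of the 54 genes 20 passed that filter, and 15 of the 20 were higher, 3 were lower and 2 did not pass the test at an adjusted p of 0.05. Over all tested genes 28.0% were higher and 34.2% were lower. A gene under 1 TPM in all vehicle libraries could pass the filter only by reaching 1 TPM in all TSA libraries, which was so for 5 of the 15. Another 3 of the 15, MAGEB2, MAGEA11 and MAGEA1, reached 1 TPM in only some vehicle libraries. They too needed a TSA library to pass the filter, so the 15 of 20 is no measure of the families. Among the 12 genes at 1 TPM or more in all vehicle libraries, 7 were higher, 3 lower and 2 not past the test, while of all 15310 such genes 23.6% were higher and 39.3% lower. In 29 of the 54 genes all TSA values lay above all vehicle values, and in 4 all lay below, where 23.4% and 24.0% of all 31814 genes did so. Among the 38 genes under 1 TPM in all vehicle libraries, 19 lay wholly above, against 22.2% of all such genes.

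**Figure D1:**
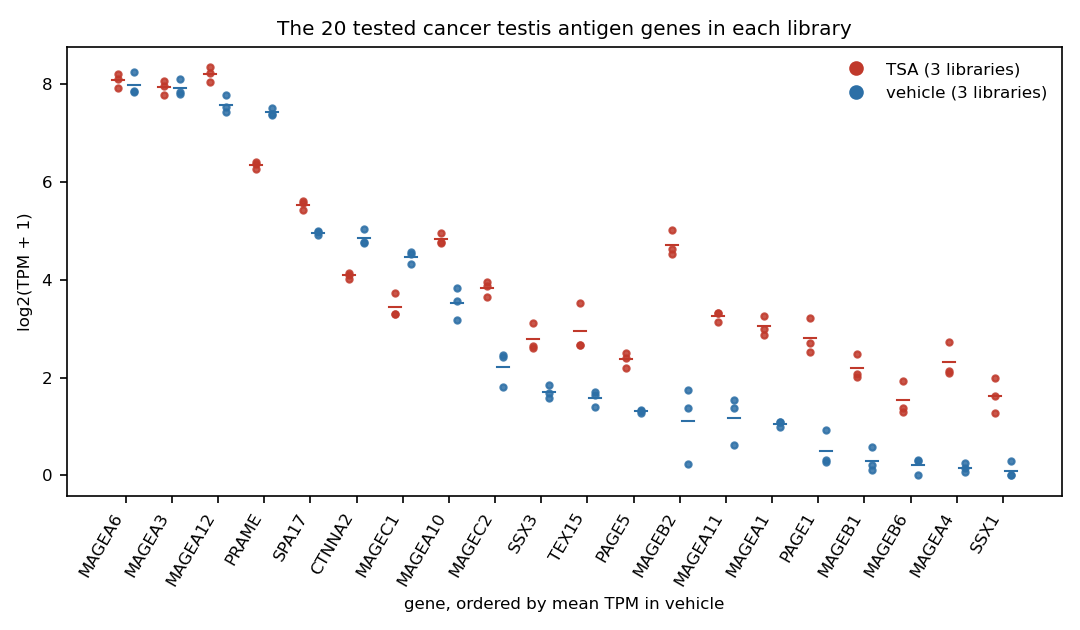
Expression as log2(TPM + 1) of the 20 tested genes, ordered by mean TPM in vehicle, with 3 points per group, TSA left in red and vehicle right in blue, and a line at each mean. The red and blue points are apart for 18 genes and overlap for MAGEA6 and MAGEA3, and the widest gap is that of MAGEB2.

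The MAGEA family held 13 of the genes and most of the transcripts, 857 ± 76.3 TPM in TSA and 700 ± 95.4 TPM in vehicle (summed TPM, mean ± SD, n = 3 libraries each). Of its 7 tested genes 5 rose and none fell. Among these 7, the genes that were weak in vehicle moved most, and 2 of the 3 strongest, MAGEA3 and MAGEA6, did not pass the test. The filter fixes part of this order: MAGEA4, averaging 0.115 TPM in vehicle, could enter only through its TSA values. MAGEA11 and MAGEA1 also entered with the help of their TSA values. The 6 MAGEA genes below the filter, also weak in vehicle, did not all rise. The authors' deposited table called MAGEA8 and MAGEA5 higher, and MAGEA2, MAGEA2B, MAGEA9 and MAGEA9B neither. Values below are in the order of libraries 1, 2 and 3 of each group.

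MAGEA4 (ENSG00000147381.7), a protein known to bind the ubiquitin ligase RAD18, was at 5.63, 3.26 and 3.39 TPM in TSA, against 0.194, 0.103 and 0.0458 TPM in vehicle. These values rest on 126, 75 and 74 reads in TSA and 4, 2 and 1 reads in vehicle. Its log2 difference was 2.16 with a standard error of 0.21 (limma adjusted p 0.00017), and it was 4.30 with a pseudocount of 0.1, because the pseudocount of 1 exceeds the vehicle level. All TSA values of MAGEA4 lay above all vehicle values, and TSA library 1 was the highest. MAGEA11 (ENSG00000185247.10), a coregulator of the androgen receptor, was at 7.83, 8.94 and 8.93 TPM in TSA, against 1.90, 1.61 and 0.530 TPM in vehicle. Its log2 difference was 2.08 with a standard error of 0.26 (limma adjusted p 0.00051). The TSA libraries were close to each other for MAGEA11, and vehicle library 3 was the lowest. MAGEA1 (ENSG00000198681.5), the first cancer testis antigen to be cloned from T cell targets, was at 8.62, 6.36 and 6.95 TPM in TSA and 1.14, 1.12 and 0.992 TPM in vehicle. Its log2 difference was 1.99 with a standard error of 0.16 (limma adjusted p 7.5e-05), and the vehicle libraries hardly varied.

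MAGEA10 (ENSG00000124260.7) was at 30.1, 25.8 and 26.2 TPM in TSA and 10.9, 13.2 and 8.04 TPM in vehicle, a log2 difference of 1.30 with a standard error of 0.18 (limma adjusted p 0.00087). In GENCODE 29 a read-through gene that spans MAGEA10 and MAGEA5 lies on the same strand. It averaged 11.1 TPM in TSA and 4.24 TPM in vehicle, so how the reads were split between them is uncertain. Both followed the same direction.

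MAGEA12, MAGEA3 and MAGEA6 were transcribed at high levels in both groups. MAGEA12 (ENSG00000213401.4) was at 262, 323 and 297 TPM in TSA and 184, 219 and 172 TPM in vehicle, a log2 difference of 0.62 with a standard error of 0.13 (limma adjusted p 0.0057). MAGEA3 (ENSG00000221867.4), which with MAGEA6 directs the ligase TRIM28 to the energy sensor kinase AMPK, was at 218, 265 and 248 TPM in TSA and 221, 273 and 227 TPM in vehicle. MAGEA6 (ENSG00000197172.6) was at 240.2, 292 and 275 TPM in TSA and 229, 301 and 231 TPM in vehicle. The groups overlapped for MAGEA3 and MAGEA6 and were apart for MAGEA12. The log2 difference was 0.020 for MAGEA3 (limma 95% interval −0.28 to 0.32, adjusted p 0.90) and 0.092 for MAGEA6 (−0.25 to 0.43, adjusted p 0.60). MAGEA3 and MAGEA6 are near-identical copies, so reads may be shared between them and each value is uncertain. MAGEA12 overlaps CSAG4 on the same strand in GENCODE 29, and CSAG4, at 37.4 TPM in TSA and 18.1 TPM in vehicle, moved the same way (log2 difference 1.00, limma adjusted p 0.0010).

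Ratios within a library do not depend on its scaling, and 4 were computed, chosen after the values were seen. The ratio of MAGEA12 to MAGEA3 was 1.20, 1.22 and 1.20 in TSA and 0.831, 0.801 and 0.756 in vehicle. That of MAGEA6 to MAGEA3 was 1.10, 1.10 and 1.11 in TSA and 1.04, 1.10 and 1.02 in vehicle. MAGEA12 thus overtook MAGEA3 in every TSA library and lay under it in every vehicle library, while the MAGEA6 ratios were apart by little. The 2-sided exact permutation p was 0.1 for either ratio, the smallest that 3 against 3 libraries allow.

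**Figure D2:**
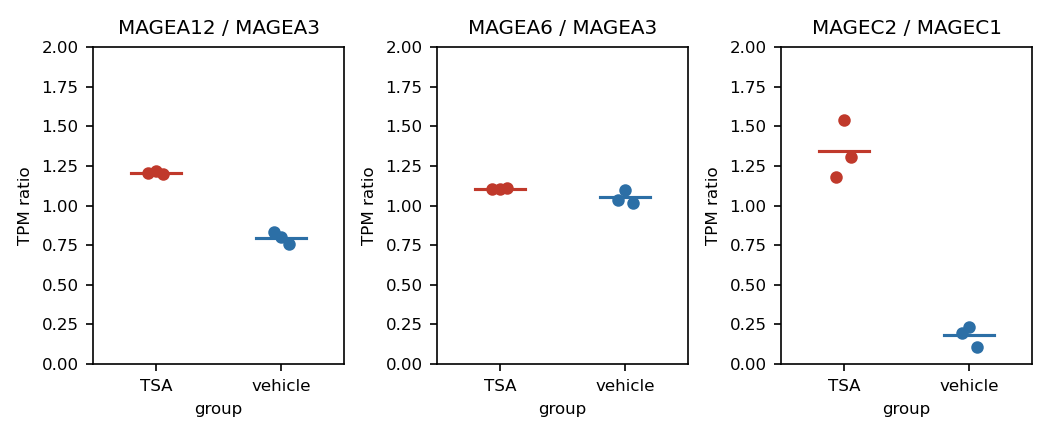
TPM ratios of 3 pairs of genes in each library, TSA left and vehicle right, with a line at the group mean; the y axis is the ratio and starts at 0. MAGEA12 over MAGEA3 is at 1.20 or above in TSA and at 0.831 or below in vehicle, and MAGEC2 over MAGEC1 is at 1.18 or above in TSA and at 0.234 or below in vehicle.

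The remaining 6 MAGEA genes stayed below the filter. MAGEA8 (ENSG00000156009.5) was at 0.990, 0.851 and 0.777 TPM in TSA, from 17, 15 and 13 reads, and listed at 0 in all vehicle libraries. MAGEA5 was at 0.651, 0.634 and 0.584 TPM in TSA, against 0.177, 0.0941 and 0.167 TPM in vehicle. The authors' deposited table called both higher, with an FDR of 3.2e-10 for MAGEA8 and 0.0071 for MAGEA5. MAGEA2, a near copy of MAGEA2B, went the other way without passing in the authors' deposited table (FDR 0.35), at 0.741, 0.241 and 0.444 TPM in TSA and 1.14, 0.572 and 0.571 TPM in vehicle. MAGEA2B, MAGEA9 and MAGEA9B did not separate the groups.

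The MAGEB family held the greatest rise. Its 7 genes summed to 32.0 ± 6.87 TPM in TSA and 1.86 ± 1.36 TPM in vehicle (n = 3 each), of which MAGEB2 averaged 25.6 TPM in TSA and 1.38 TPM in vehicle. MAGEB2 (ENSG00000099399.5), a type I MAGE gene on the short arm of the X chromosome, was at 31.2, 23.7 and 21.9 TPM in TSA, against 1.58, 2.37 and 0.175 TPM in vehicle. The reads behind it were 365, 285 and 250 in TSA and 17, 24 and 2 in vehicle. Every TSA library was far above every vehicle library, and vehicle library 3 held almost none. The log2 difference was 3.60 with a standard error of 0.39 (limma adjusted p 0.00028), and 3.16 without vehicle library 3.

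MAGEB1 (ENSG00000214107.3) was at 4.61, 3.20 and 3.01 TPM in TSA and 0.152, 0.485 and 0.0717 TPM in vehicle, a log2 difference of 1.90 with a standard error of 0.21 (limma adjusted p 0.00028). MAGEB6 (ENSG00000176746.6) was at 2.83, 1.44 and 1.59 TPM in TSA and 0.230, 0.245 and 0 TPM in vehicle, a log2 difference of 1.33 with a standard error of 0.22 (limma adjusted p 0.0018). With a pseudocount of 0.1 the log2 differences were 3.63 for MAGEB1 and 3.13 for MAGEB6. Neither gene overlapped between the groups, and for each TSA library 1 was the highest. MAGEB1 overlaps MAGEB4 on the same strand in GENCODE 29, which leaves its reads uncertain. The ratio of MAGEB2 to MAGEB1 was 6.76, 7.42 and 7.28 in TSA and 10.4, 4.89 and 2.45 in vehicle, so that it overlapped between the groups (2-sided exact permutation p 0.6). Of the 4 MAGEB genes below the filter, MAGEB10 had 18 reads in TSA and was listed at 0 in vehicle, and MAGEB16 had 10 reads in TSA and 1 in vehicle. MAGEB10, MAGEB16 and MAGEB3 were called higher in the authors' deposited table, with FDRs of 0.00013, 0.021 and 0.028, and MAGEB17 was not (FDR 0.99).

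The MAGEC family split. MAGEC2 (ENSG00000046774.9), which binds TRIM28, was at 14.5, 13.6 and 11.6 TPM in TSA and 4.36, 4.48 and 2.48 TPM in vehicle. MAGEC1 (ENSG00000155495.8), whose protein carries long tandem repeats, was at 12.2, 8.82 and 8.86 TPM in TSA and 22.1, 19.1 and 22.6 TPM in vehicle. The groups overlapped for neither, and they moved in opposite directions. The log2 difference of MAGEC2 was 1.60 with a standard error of 0.21 (limma adjusted p 0.00070), and that of MAGEC1 was −1.03 with a standard error of 0.16 (limma adjusted p 0.0013). Their summed family level, 23.2 ± 3.19 TPM in TSA and 25.1 ± 1.38 TPM in vehicle, did not show this split. The ratio of MAGEC2 to MAGEC1 was 1.18, 1.54 and 1.30 in TSA and 0.198, 0.234 and 0.11 in vehicle, a log2 difference of 2.96 (2-sided exact permutation p 0.1, the smallest possible). The genes sit in a run of SPANXD, MAGEC3, MAGEC1 and MAGEC2 on the X chromosome with no other tabulated gene between them in GENCODE 29. MAGEC3 had 5 reads in TSA and 3 in vehicle, and SPANXD had 2 in TSA and was listed at 0 in vehicle.

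The PAGE genes, X-linked relatives of the GAGE genes, summed to 13.7 ± 1.70 TPM in TSA and 2.46 ± 0.397 TPM in vehicle (n = 3 each). PAGE1 (ENSG00000068985.4) was at 4.76, 8.27 and 5.52 TPM in TSA and 0.901, 0.239 and 0.212 TPM in vehicle, a log2 difference of 2.31 with a standard error of 0.26 (limma adjusted p 0.00034). The difference was 3.69 with a pseudocount of 0.1, and only 6 reads in all lay behind the vehicle values. PAGE5 (ENSG00000158639.7) was at 4.26, 4.69 and 3.61 TPM in TSA and 1.41, 1.50 and 1.52 TPM in vehicle, a log2 difference of 1.06 with a standard error of 0.15 (limma adjusted p 0.00082). For both the TSA values stood clear of the vehicle values, and TSA library 2 was the highest. PAGE4 (ENSG00000101951.12), a disordered protein best known from prostate, was at 1.62, 0.963 and 2.17 TPM in TSA, from 23, 14 and 30 reads, and listed at 0 in all vehicle libraries. It stayed below the filter, and the authors' deposited table called it higher (FDR 1.0e-11). PAGE2 and PAGE2B, near copies of each other, were not past the threshold in the authors' deposited table (FDR 0.36 and 0.10), and PAGE3 was called higher in it (FDR 0.028) on 5 reads in TSA and none in vehicle.

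SSX genes encode nuclear repressors that are known from the gene fusions of synovial sarcoma. SSX3 (ENSG00000165584.11) was at 7.61, 5.24 and 5.08 TPM in TSA and 2.60, 1.98 and 2.19 TPM in vehicle, a log2 difference of 1.09 with a standard error of 0.19 (limma adjusted p 0.0024). SSX1 (ENSG00000126752.7) was at 2.97, 2.07 and 1.41 TPM in TSA and 0, 0 and 0.218 TPM in vehicle, a log2 difference of 1.53 with a standard error of 0.22 (limma adjusted p 0.00094). SSX1 had 61 reads in TSA and 2 in vehicle, so the size of its rise depends on the pseudocount, and it was 3.88 with a pseudocount of 0.1. The groups were apart for both genes, with TSA library 1 the highest. Below the filter, SSX6 had 51 reads in TSA and 1 in vehicle, SSX5 had 10 in TSA and none in vehicle, and SSX9 had 1 in TSA and none in vehicle. The authors' deposited table called SSX6 (FDR 5.9e-06) and SSX5 (FDR 0.00096) higher, and SSX9 neither (FDR 0.34). SSX genes are close copies of each other, which leaves the split of reads among them uncertain.

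The GAGE, XAGE, SPANX and CT-numbered genes all remained below the filter, and many have near-identical copies. GAGE1 had 24 reads in TSA and 1 in vehicle, and CT45A5 had 18 reads in TSA and was listed at 0 in vehicle. In the authors' deposited table both were called higher, with FDRs of 0.00012 and 6.6e-05. GAGE10, GAGE12H, XAGE3, SPANXD, SPANXN5, CT62 and CT64 were not past the threshold there, with FDRs of 0.063 to 0.34. GAGE12H had a single read, in vehicle.

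**Figure D3:**
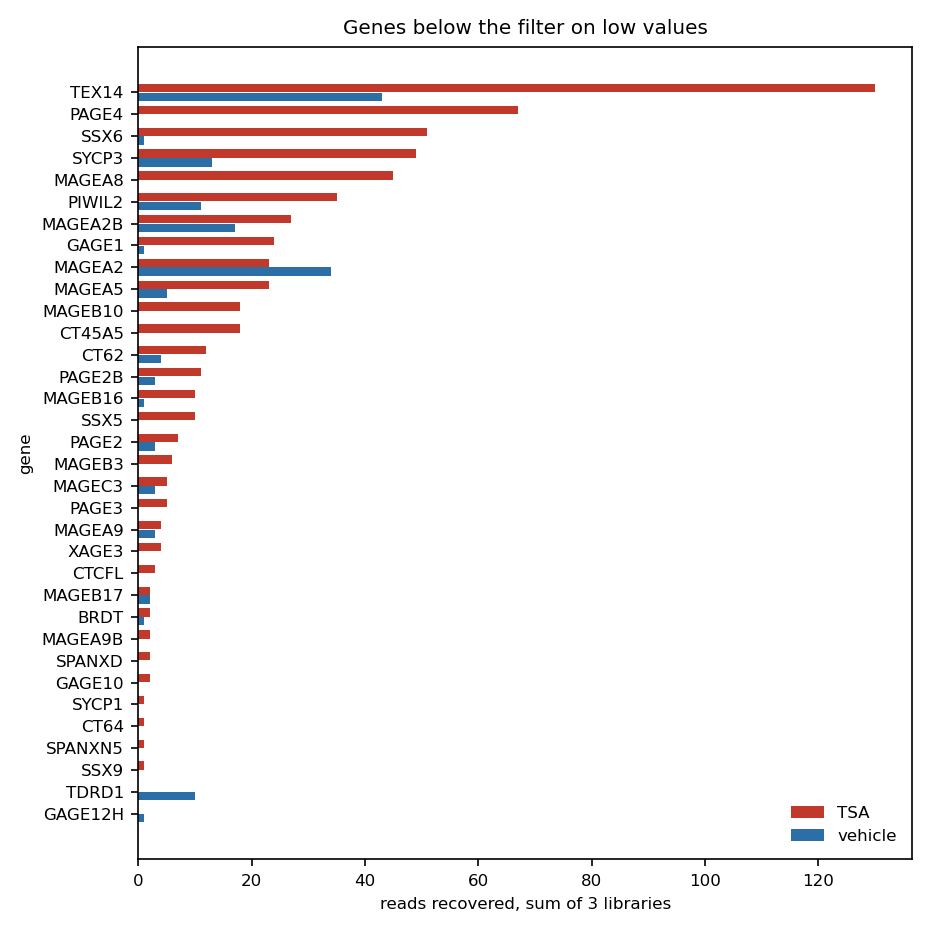
Reads recovered for the 34 genes below the filter, summed over the 3 libraries of each group, TSA in red above vehicle in blue, with a linear x axis from 0. PAGE4 (67 reads) and MAGEA8 (45 reads) have reads only in TSA, and TDRD1 (10 reads) and GAGE12H (1 read) only in vehicle.

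The autosomal genes moved both ways. PRAME (ENSG00000185686.13), which represses retinoic acid receptor signalling and serves as a receptor subunit of a CUL2 ubiquitin ligase, was at 83.5, 81.7 and 76.1 TPM in TSA and 164, 166 and 182 TPM in vehicle. Its groups were far apart and tight, and its log2 difference was −1.08 with a standard error of 0.087 (limma adjusted p 7.8e-05). CTNNA2 (ENSG00000066032.14), the neuronal alpha catenin that ties cadherins to actin, was at 15.2, 16.7 and 16.1 TPM in TSA and 25.9, 26.3 and 31.9 TPM in vehicle. Its log2 difference was −0.77 with a standard error of 0.12 (limma adjusted p 0.0013). Unlike most of the listed genes, PRAME and CTNNA2 were well transcribed in vehicle. So were MAGEC1, which fell, SPA17 and MAGEA12, which rose, and MAGEA3 and MAGEA6, which did not pass.

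SPA17 (ENSG00000064199.2), a sperm surface protein, was at 41.7, 48.0 and 46.2 TPM in TSA and 30.9, 29.03 and 30.4 TPM in vehicle, a log2 difference of 0.57 with a standard error of 0.092 (limma adjusted p 0.0016). SIAE, which overlaps it on the opposite strand, averaged 7.79 TPM in TSA and 0.464 TPM in vehicle. Whether reads were counted by strand is not stated in the labels, so the pair may not be fully separated. TEX15 (ENSG00000133863.2), needed in mice to silence transposons in germ cells, was at 10.6, 5.37 and 5.38 TPM in TSA and 2.25, 1.64 and 2.12 TPM in vehicle. Its log2 difference was 1.38 with a standard error of 0.27 (limma adjusted p 0.0038), and TSA library 1 was well above the other TSA libraries.

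The 7 other named autosomal genes were below the filter. TEX14 (ENSG00000121101.11), a protein of the bridges between mouse germ cells, was at 1.68, 0.831 and 0.849 TPM in TSA and 0.450, 0.419 and 0.345 TPM in vehicle, below the filter. SYCP3, a core protein of meiotic chromosome axes, was at 1.04, 0.455 and 0.258 TPM in TSA and 0.196, 0.125 and 0.184 TPM in vehicle. In both, the TSA values lay above the vehicle values and TSA library 1 was the highest. The authors' deposited table called TEX14 (FDR 0.0012), SYCP3 (FDR 0.010) and PIWIL2 (FDR 0.033), a piRNA-binding protein, higher. TDRD1, a Tudor protein of the piRNA pathway in mice, had no read in TSA and 3, 2 and 5 reads in vehicle, and the authors' deposited table called it lower (FDR 0.0011). CTCFL, the germline paralog of CTCF, had 3 reads in TSA and none in vehicle. BRDT, a testis bromodomain protein, had 2 reads in TSA and 1 in vehicle, and SYCP1, of the synaptonemal complex, had 1 in TSA and none in vehicle. None of these 3 passed in the authors' deposited table, with FDRs of 0.11 to 0.69.

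**Figure D4:**
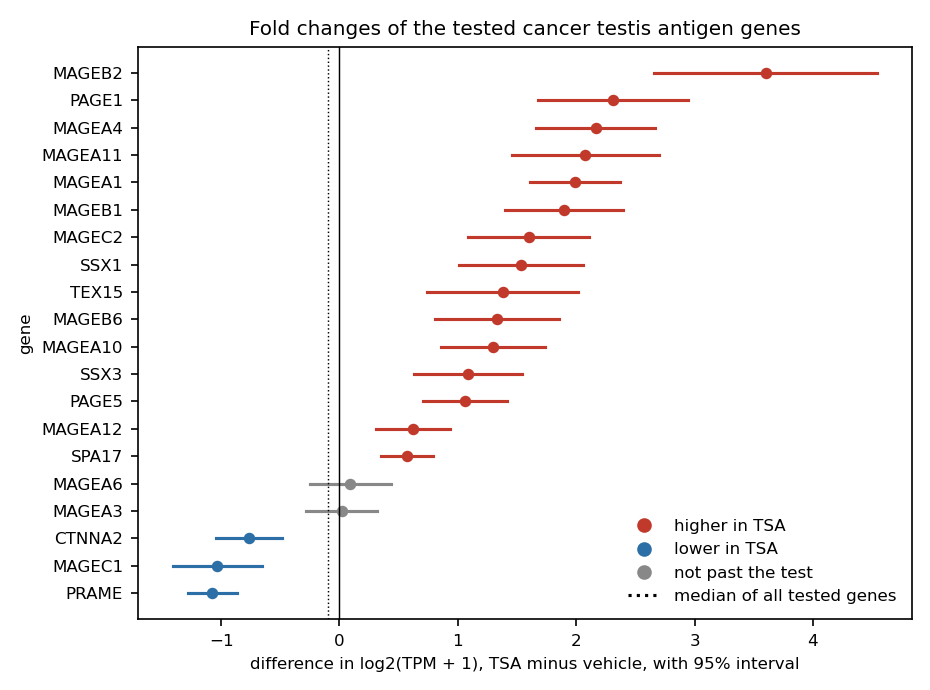
Difference in log2(TPM + 1), TSA minus vehicle, of the 20 tested genes with its 95% interval from limma, red for higher, blue for lower and grey for not past the test, with a dotted line at the median of all tested genes, −0.095. The differences run from −1.08 for PRAME to 3.60 for MAGEB2, and the intervals of MAGEA3 and MAGEA6 include 0.

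Over all 54 genes the authors' deposited table, which tested every row, called 29 higher, 4 lower and 21 neither at an FDR of 0.05. Over its 31814 genes 21.8% were higher and 19.5% lower. Among the 38 genes under 1 TPM in all vehicle libraries it called 19 higher and 1 lower, where the authors' deposited table had 21.4% and 3.38% of all 13776 such genes. Of the 41 X-linked genes it called 24 higher and 1 lower, and of the 13 autosomal ones 5 higher and 3 lower. The 29 X-linked genes under 1 TPM in all vehicle libraries had 16 called higher and 0 lower in the authors' deposited table. Among the 535 other X-linked genes under 1 TPM in all vehicle libraries, 24.3% were higher and 1.31% lower in the authors' deposited table. Of the 16 genes at 0 in all vehicle libraries, 6 had reads in all TSA libraries (37.5%), while 22.8% of all 4642 such genes did. These comparisons with other genes were not tested. Summed over all 54 genes, the level was 1088 ± 67.4 TPM in TSA and 964 ± 88.4 TPM in vehicle, and without MAGEA3, MAGEA6, MAGEA12 and PRAME it was 201 ± 17.5 TPM in TSA and 107 ± 2.07 TPM in vehicle (n = 3 each).

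TSA library 1 was the highest TSA library for 10 of the 15 genes that rose, TSA library 2 for 5 and TSA library 3 for 0. Over all 4929 genes that rose the shares were 42.2%, 32.9% and 24.9%. Without TSA library 1 all counts were as before, with 15 genes higher and 3 lower. Vehicle library 3 was the lowest vehicle library for 10 of the 15, MAGEB2 and MAGEA4 among them, vehicle library 2 for 3 and vehicle library 1 for 1, with a tie in SSX1. Over all genes that rose it was the lowest for 34.7%. Without vehicle library 3, 15 genes were again higher and 3 lower. Markers of other cells were checked beside these rises. Of 6 testis germ cell markers in the table, DDX4, DAZL, ACRV1, PIWIL1 and SYCP2 were below 1 TPM in every library. DDX4 was listed at 0 in 2 of 3 TSA and all vehicle libraries, and DAZL at 0 in all TSA and 2 of 3 vehicle libraries. PIWIL1 had 16 reads in TSA and 1 in vehicle, and the authors' deposited table called it higher (FDR 0.0016). The other germ cell markers, DMC1 among them, were not past the threshold there. The germ cell markers summed to 6.56 to 7.55 TPM in TSA and 6.08 to 7.72 TPM in vehicle. Nearly all of that sum was DMC1, so it says little about the others. Fibroblast markers summed to 5.15 to 7.05 TPM in TSA and 0.211 to 0.906 TPM in vehicle. COL1A1 alone of 5 was tested, and rose, while COL1A2, COL3A1, DCN and LUM were at 0 in all vehicle libraries. COL1A2 had 62 reads in TSA and LUM 18, and the authors' deposited table called both higher (FDR 1.5e-12 and 0.00012). COL3A1 and DCN had 1 read each in TSA and were not past the threshold there. Leukocyte markers summed to 4.29 to 6.49 TPM in TSA and 1.18 to 2.22 TPM in vehicle. Of these, CD68 rose, PTPRC was at or under 0.0647 TPM in TSA and 0.510 TPM in vehicle, and LYZ was at 0 in all TSA libraries. Their part in the rise of cancer testis antigen genes was not tested.

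Neighbours on the X chromosome did not all move with the MAGEA genes. Between MAGEA4 and MAGEA1, a stretch with 8 of the genes in GENCODE 29 order, lay 15 other tabulated genes. Of these 8 were tested, and 5 rose, 1 fell and 2 did not pass, where 28.0% of all tested genes rose and 34.2% fell. The 5 include CSAG4 and the read-through gene of MAGEA10 and MAGEA5, which overlap listed genes on the same strand, so their reads may not be separate. CETN2, a centrin of centrosomes, averaged 463 TPM in TSA and 139.8 TPM in vehicle (log2 difference 1.72, limma adjusted p 0.00011). GABRA3, a GABA receptor subunit, averaged 6.57 TPM in TSA and 17.7 TPM in vehicle (log2 difference −1.32, limma adjusted p 0.00033). CSAG1, a cancer testis gene outside the symbol rule, was at 153, 204 and 185 TPM in TSA and 162, 224 and 172 TPM in vehicle, and like MAGEA3 and MAGEA6 it did not pass (log2 difference −0.040, limma adjusted p 0.85). The neighbours CETN2, GABRA3 and CSAG1 were named after their values were seen.

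Other germline and cancer testis genes came from a list of 69, of which 61 were in the table. Those that passed the filter showed no common direction. Of these 25, 11 rose, 9 fell and 5 did not pass, where 28.0% of all tested genes rose and 34.2% fell. Their median log2 difference was −0.0047, against −0.095 over all tested genes. The other 36 were below the filter. In the authors' deposited table PASD1 (FDR 3.8e-13), TEX11 (FDR 1.5e-08), MAEL, POTEE, IGSF11, TDRD6, STAG3 and PIWIL1 of the 36 were called higher. So were TDRD9, NUTM1, MEIOB, TDRD12, TULP2, RAD21L1 and TAF7L, and SLCO6A1 alone was called lower (FDR 0.0013). Of all genes under 1 TPM in all vehicle libraries, 21.4% were called higher there and 3.38% lower. The comparison was not tested. TEX19, a mammalian germ cell gene, averaged 6.67 TPM in TSA and 0.234 TPM in vehicle (log2 difference 2.63). TEX101, a germ cell surface protein, averaged 0.995 TPM in TSA and 30.1 TPM in vehicle and fell by 3.96 on the log2 scale. PBK, a mitotic kinase, and LEMD1 fell by 2.61 and 2.14 on the log2 scale. The limma adjusted p of these 4 genes was between 7.7e-06 and 0.00027.

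The type II MAGE genes, which are transcribed in many tissues, gave 3 higher and 2 lower of 6 tested, beside 28.0% and 34.2% of all tested genes, with a median log2 difference of 0.36. MAGEH1 averaged 14.4 TPM in TSA and 0.443 TPM in vehicle (log2 difference 3.41, limma adjusted p 1.1e-05), and MAGEE1 averaged 2.78 TPM in TSA and 0.108 TPM in vehicle (1.73, adjusted p 0.00058). NDNL2, which encodes a subunit of the SMC5/6 complex, rose by 0.46 (limma adjusted p 0.040), although its groups overlapped. MAGED1 and MAGED2 differed by −0.28 and −0.42, calls that both ended with a median-of-ratios scaling, under which 0 of the 6 were lower. The authors' deposited table called neither MAGED1 nor MAGED2 lower (FDR 0.34 and 0.13). Without TSA library 2 or 3, or without any of the vehicle libraries, 1 of the 6 was lower in limma. The count of higher genes was 2 without TSA library 2 or 3, without vehicle library 1 or 3, and without limma's trend. It was 4 with a quantile scaling, with voom on recovered reads and with a replicate block.

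Of 21 tested partners of MAGE and PRAME proteins 6 were higher and 7 lower, shares near the 28.0% and 34.2% of all tested genes, with a median log2 difference of −0.027. TRIM28, the ligase bound by MAGEA3, MAGEA6 and MAGEC2, averaged 387 TPM in TSA and 399.97 TPM in vehicle and did not pass (log2 difference −0.048, limma adjusted p 0.75). TNFRSF10B, a death receptor, averaged 16.4 TPM in TSA and 0.0290 TPM in vehicle (log2 difference 4.02). USP7, a deubiquitinase, and TRIM69, a RING ligase, fell by 1.60 and 1.45 on the log2 scale. The adjusted p of these 3 changes was 3.6e-05 to 0.00020 in limma.

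Of 16 tested genes of DNA methylation 12 fell and 1, MBD1, rose, where 34.2% of all tested genes fell and 28.0% rose. Their median log2 difference was −0.91, against −0.095 over all tested genes. DNMT1, the maintenance methyltransferase, averaged 59.9 TPM in TSA and 106 TPM in vehicle (log2 difference −0.85, limma adjusted p 0.020), with TSA library 1 at 83.5 TPM and the others at 45.9 and 50.2 TPM. DNMT3A, a de novo methyltransferase, averaged 3.45 TPM in TSA and 15.2 TPM in vehicle (−1.85, adjusted p 0.00013), and DNMT3B, another, differed by −0.51 (adjusted p 0.011). UHRF1, which recruits DNMT1, differed by −0.46 (adjusted p 0.0092), but was not past the threshold in the authors' deposited table (FDR 0.069). TET2, which oxidises methylcytosine, ZBTB33, a reader of methylated DNA, and TDG, which removes the oxidised base, fell by 2.71, 1.43 and 1.22 on the log2 scale. These are transcript levels, and methylation was not measured.

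Of 27 genes that repress germline genes, all tested, 15 fell, 5 rose and 7 did not pass, where 34.2% of all tested genes fell and 28.0% rose. Their median log2 difference was −0.66, against −0.095 over all tested genes. ATF7IP, a partner of the H3K9 methyltransferase SETDB1, averaged 5.55 TPM in TSA and 24.5 TPM in vehicle (log2 difference −2.02, limma adjusted p 0.0017), and SETDB1 differed by −1.03 (adjusted p 0.0059). CTCF averaged 31.1 TPM in TSA and 108 TPM in vehicle (−1.77, adjusted p 1.5e-05). EHMT2, another H3K9 methyltransferase, differed by −0.45 (adjusted p 0.0057), but was not past the threshold in the authors' deposited table (FDR 0.064). Among the listed subunits of the germline-repressing polycomb complex PRC1.6, PCGF6, L3MBTL2, RNF2, TFDP1 and CBX3 fell, by 1.12, 0.78, 1.14, 1.00 and 1.26 on the log2 scale (limma adjusted p 0.00025 to 0.0010). MAX rose by 1.56 and E2F6 by 0.28, with limma adjusted p of 6.6e-05 and 0.040, and RING1 did not pass (adjusted p 0.47). E2F6 was not past the threshold in the authors' deposited table (FDR 0.12). MGA, of the same complex, was at 32.0, 8.93 and 8.34 TPM in TSA and 23.7, 8.44 and 17.3 TPM in vehicle and did not pass (adjusted p 0.82). Among the histone deacetylases that TSA inhibits, HDAC1 and HDAC3 rose by 0.77 and 1.57 on the log2 scale and HDAC2 fell by 0.81 (limma adjusted p 0.00052, 1.9e-05 and 0.00030). Without TSA library 1 or 3, or without vehicle library 1 or 3, 3 of the 27 were higher.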

How the data were processed

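Samples were grouped by their labels, and the members and gene lists were chosen with earlier results of these data known. The submitters' processing notes list the build hg19, edgeR, featureCounts, Picard 1.127, STAR 2.5.3a and FastQC 0.11.2, without roles. The authors deposited TPM for 31814 genes of GENCODE 19, scaled so that each library sums to 1000000. Their own comparison holds a log2 fold change and mean log2 level per gene, a likelihood ratio score, and a p-value and FDR, per the file headers. Its sign was checked on 4627 genes, and positive means higher in TSA. The test of that table is named glmLRT in the deposited name, and other settings are not given in the sources used here.

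Whole reads were recovered for all 31814 genes from the deposited TPM, within 1e-06 reads. Recovered lengths equalled the GENCODE 29 exon length for 67.6% of genes (33 of the 54), and elsewhere reads are the smallest whole numbers that fit, so depth is a lower bound and limits precision for counting error only. Within groups, recovered reads varied beyond sampling noise (chi-square per degree of freedom 7.97 to 105), so no library was taken as a duplicate.

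Groups were compared on log2(TPM + 1) by lmFit and eBayes with trend (limma 3.58.1, R 4.3.3), two-sided and without a block, and the script was checked on simulated data. Fold changes on that scale understate the change of low genes. Ratios used exact permutation tests in SciPy 1.17.1, and figures matplotlib 3.10.9. Genes were named if they were at 1 TPM or more in at least 1 library, with all 6 values where they passed the test or averaged 1 TPM in a group. Up to 2 further genes per family with the highest mean, up to 4 genes per other list with the greatest change past the test, and a set of regulators whatever their values were also named. Promoters were shown for up to 6 genes with the greatest change, and genes further named outside this rule, among them the remaining genes with few reads, were chosen after their values were seen. Gene order and overlaps are from GENCODE 29, whose build differs from hg19, so no gene coordinates are given. Alternatives were other pseudocounts, filters, scalings and limma settings, recovered reads with voom, a replicate block, leaving out libraries and other detection levels. Results of some marker genes are not reported here.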

Additional observations from a re-analysis of the deposited data

How the results depend on the processing

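The 20 tested genes were refitted under up to 18 alternatives each, 354 fits in all. In 351 the direction and the side of the threshold were as reported. The 3 others were MAGEA3, not past the test in any, whose log2 difference was −0.044 without TSA replicate 2, −0.036 without vehicle replicate 1 and −0.018 without vehicle replicate 3, and ran from −0.044 to 0.11 over all left-out libraries. The number of cancer testis antigen genes higher in TSA was 24 with no filter and 9 with a filter of 5 TPM, and 15 whichever library was left out. Other germline genes higher in TSA numbered 18 with no filter and 5 with a filter of 5 TPM, because other genes are then tested. Genes at 0.1 TPM or more in all 3 libraries numbered 37 in TSA and 20 in vehicle, against 20 and 12 at 1 TPM.

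Type II MAGE genes lower in TSA numbered 0 with a median-of-ratios scaling and with voom on recovered reads, and 1 with a quantile scaling and without limma's trend. Leaving out libraries gave 1 to 2. Repressors of germline genes higher in TSA numbered 3 to 4 when libraries were left out, against 5; they were 3 without TSA replicate 1, TSA replicate 3, vehicle replicate 1 or vehicle replicate 3. The cause was not tested. Median-of-ratios and quantile scaling moved the median log2 difference of all tested genes from −0.095 to 0.0085 and 0.010.

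With the replicate number as a block, 15 of the genes were higher and 3 lower, and over all tested genes 5637 were higher and 6848 lower, against 4929 and 6013. Deviations of same-numbered TSA and vehicle libraries 1, 2 and 3 correlated at 0.63, 0.59 and −0.073 across genes. Libraries 1 and 2 correlated best with their own number, while libraries 3 did not. What the number marks is not stated in the labels, so whether same-numbered libraries belong together cannot be told. Genes with few reads in vehicle are limited by depth: 27 of the 54 had 3 reads or fewer there.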
